A study of Mus musculus with 34 samples.

Results

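The genes described here were 10 members of the NF-kB response and its negative feedback: the cytokine gene Tnf, the IkB genes Nfkbia, Nfkbie and Nfkbiz, the feedback inhibitor genes Tnfaip3 and Zc3h12a, the ubiquitin ligase gene Birc3, and the subunit genes Nfkb1, Nfkb2 and Relb. They were taken by gene symbol from a list chosen with earlier results of these data known. All 10 were found among the 14552 genes of a table of 10 uninjected hearts and among the 17406 genes of a table of 24 injected and sham hearts. RNA was sequenced from the left ventricle (LV) of CFW mice, in which the left anterior descending artery was tied off for good to cause myocardial infarction (MI). For the uninjected hearts, the paper states that the ischemic area was collected, or the matching area in sham hearts. In the first table, 3 hearts labelled sham were compared with 3 hearts 4 h post-MI and 4 hearts 24 h post-MI, none of them injected. The second table held 2 sham hearts labelled 4 h and not injected, and hearts that received modified RNA (modRNA) in the infarct border zone right after ligation. Of these, 4 received Luc modRNA and 4 received AC modRNA and were collected at 4 h, 3 and 3 at 24 h, and 4 and 4 at 48 h. Luc encodes the reporter luciferase and served as the control, and the labels do not spell out AC. Titles of the 24 h libraries of the second table also hold the letters Br, which the titles do not explain. The sham hearts of the first table carry the label of no operation beside a title that says sham. An infarcted heart without an injection was not among the 24 libraries, so MI and injection cannot be told apart in the comparisons of Luc hearts with sham hearts.

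NF-kB is a family of dimeric transcription factors that wait in the cytoplasm, held by IkB proteins. Signals from TNF receptors, interleukin 1 receptors and Toll-like receptors lead a kinase complex to mark IkB for destruction, and the freed dimers enter the nucleus. Many of the genes that NF-kB switches on encode its own brakes, so IkB is made again, ubiquitin chains on the signalling complex are trimmed and inflammatory transcripts are degraded. In infarcted myocardium, the pathway is known for driving cytokine, chemokine and adhesion molecule genes in resident cells and in the leukocytes that enter the tissue.

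On the mm10 genome, Tnf lies on chromosome 17 at 35199367 to 35202007, and Nfkbie lies on the same chromosome at 45555700 to 45563168. Nfkbia lies on chromosome 12 at 55489409 to 55492647, Nfkbiz on chromosome 16 at 55811377 to 55838641, and Tnfaip3 on chromosome 10 at 19000910 to 19015410. Birc3 lies on chromosome 9 at 7848701 to 7873170, and Zc3h12a on chromosome 4 at 125118414 to 125127881. Nfkb1 lies on chromosome 3 at 135584655 to 135691547, Nfkb2 on chromosome 19 at 46304737 to 46312090, and Relb on chromosome 7 at 19606222 to 19629438. Promoter windows of 300 bases, 250 before and 50 after each start site (RefSeq, GRCm38.p6), were at hand for 7 of the 10 members and were not used here for Nfkb1, Nfkbiz and Relb. The NF-kB consensus decamer, searched on both strands, was present in the windows of 4 of these 7 members, Tnfaip3, Nfkbia, Nfkbie and Nfkb2. Among all promoters of the same length, 2779 of 32851 (8.46%) held it, as did 2581 of 27025 genes (9.55%) in at least 1 window. A looser form of the decamer was present in the same 4 members and in 11.2% of all promoters. The letters of the decamer were not in these windows of Tnf, Birc3 and Zc3h12a, which says nothing of sites farther away. The matches are shown to give the promoter sequence of those members that hold the decamer near a start site. Each line gives 30 bases in the direction of the gene, 5′ to 3′, with the decamer in capitals and its distance from the start site. Nfkb2 holds 1 more match before an alternative start, and 1 that overlaps a match shown, which are not printed.
Nfkbia, chr12:55492657-55492686, minus strand, 29 to 20 bases upstream: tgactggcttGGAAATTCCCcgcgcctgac
Nfkbie, chr17:45555584-45555613, plus strand, 106 to 97 bases upstream: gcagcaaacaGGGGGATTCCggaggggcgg
Tnfaip3, chr10:19015516-19015545, minus strand, 125 to 116 bases upstream: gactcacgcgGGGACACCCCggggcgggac
Tnfaip3, chr10:19015403-19015432, minus strand, 12 to 3 bases upstream: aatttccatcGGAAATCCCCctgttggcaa
Nfkb2, chr19:46304716-46304745, plus strand, 11 to 2 bases upstream: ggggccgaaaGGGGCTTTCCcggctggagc
Nfkb2, chr19:46305695-46305724, plus strand, 10 to 19 bases downstream of an alternative start: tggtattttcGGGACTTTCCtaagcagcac
Nfkb2, chr19:46304688-46304717, plus strand, 39 to 30 bases upstream: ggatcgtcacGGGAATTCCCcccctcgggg

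Values are CPM, read counts scaled to library size and deposited as normalized values in separate tables, so levels are compared within a table only. In the uninjected hearts, 1 read was worth 0.0313 to 0.0479 CPM, which puts an estimated 12553519 to 18952669 reads in the listed genes of each library. The depth of the 24 libraries is unknown. Differences were tested with limma on log2(CPM + 1) in genes that averaged 1 CPM or more, 12487 and 12555 in number, with q values from the Benjamini-Hochberg procedure over all of them. Folds are ratios of group means in CPM, log2 changes are on the log2(CPM + 1) scale and understate the change of low genes, and a gene is said to rise or fall where q was under 0.05. The spread in these tests is that between libraries.

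The cells in the tissue changed with the groups. In the uninjected hearts, the summed level of 8 neutrophil markers was 1.98 to 3.57 CPM in sham, 7.86 to 32.3 CPM at 4 h and 311 to 1949 CPM at 24 h. Ptprc, a gene of all leukocytes, was at 4.71 to 6.21, 5.64 to 7.90 and 26.5 to 61.7 CPM in the same order, and 8 cardiomyocyte markers summed to 49662 to 53494 CPM in sham and 24512 to 39101 CPM at 24 h. In the 24 libraries, Ptprc was at 3.52 to 4.46 CPM in sham, 6.46 to 8.32 CPM in Luc hearts at 4 h, 6.24 to 7.59 CPM at 24 h and 15.9 to 16.9 CPM at 48 h. In AC hearts it was at 4.36 to 9.99, 6.06 to 9.02 and 23.2 to 39.5 CPM at these times. The sum of 8 monocyte and macrophage markers was 142 to 197 CPM in sham. In Luc hearts it was 178 to 224, 103 to 143 and 171 to 260 CPM at 4 h, 24 h and 48 h, and in AC hearts 168 to 212, 102 to 208 and 410 to 604 CPM. Cardiomyocyte markers summed to 56710 to 58377 CPM in sham and 71231 to 89610 CPM in Luc hearts at 24 h. In bulk tissue, a change in the number of cells of a type and a change in RNA per cell cannot be told apart, and the part of either in the results was not tested. Some libraries stood apart from their group: library G among the uninjected hearts at 24 h, both 24 h libraries lettered A, and libraries 1 and 3 of the Luc hearts at 48 h. AC 24 h library C stood apart as well, at the low end of its group for the members, though the share of all genes lowest in it was not counted. All of these libraries were picked after the data were seen, so shares of all genes given for them are descriptive. Changes of the members that rest on them are mostly given with and without them. The pathway list counts, the changes of other pathway genes and the likeness of patterns to Tnf and Nfkbia are given with all libraries only. Titles number the sham and 4 h libraries of the second table in 1 run of sample numbers and the 48 h libraries in another, and give no such number to the 24 h libraries, so time and the set of libraries cannot be told apart in any comparison within that table of 24 h or 48 h hearts with sham hearts or with hearts of another time.

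Tnf, which encodes the cytokine that sets off NF-kB through its receptors, did not pass the test 4 h post-MI and rose at 24 h in uninjected hearts. Its level was 0.470, 0.565 and 0.812 CPM in sham libraries D, H and I, and 1.35, 0.718 and 0.735 CPM in the 4 h libraries C, D and E. At 24 h it was 6.72, 4.57, 2.86 and 6.81 CPM in libraries C, D, G and H. Sham and 4 h overlapped, and every 24 h library was above every other. Sham hearts averaged 0.616 ± 0.177 CPM (SD, n = 3). The 4 h hearts averaged 0.936 ± 0.362 CPM (n = 3) and the 24 h hearts 5.24 ± 1.89 CPM (n = 4). At 4 h the log2 change from sham was 0.25 ± 0.25 (SE, q = 0.684, 95% interval -0.31 to 0.81), and Tnf was the only member whose groups overlapped. From sham to 24 h Tnf rose 8.51-fold (log2 change 1.90 ± 0.24, q = 3.60e-05), and from 4 h to 24 h it rose 5.60-fold (1.65 ± 0.24, q = 0.000116).

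The IkB genes moved on different schedules. Nfkbia encodes the classical inhibitor that holds the dimers in the cytoplasm. It was at 17.3, 18.7 and 19.3 CPM in sham, 53.9, 57.0 and 47.5 CPM at 4 h, and 98.9, 111, 50.9 and 71.6 CPM at 24 h. All infarcted hearts were above all sham hearts, and 24 h library G lay within the range of the 4 h hearts. Nfkbia rose 2.87-fold at 4 h (log2 change 1.47 ± 0.23, q = 0.00633) and 4.51-fold at 24 h (2.05 ± 0.21, q = 9.80e-06). Nfkbiz encodes a nuclear IkB protein that switches on a further set of inflammatory genes, and it had the highest log2 change of the members in both comparisons with sham. It was at 3.04, 2.42 and 2.99 CPM in sham, 20.4, 24.0 and 16.4 CPM at 4 h, and 34.6, 38.6, 15.2 and 23.5 CPM at 24 h. It rose 7.20-fold at 4 h (2.47 ± 0.28, q = 0.000752) and 9.94-fold at 24 h (2.85 ± 0.26, q = 4.01e-06), while its difference between 24 h and 4 h did not pass the test (0.38 ± 0.26, q = 0.225, 95% interval -0.20 to 0.95). That difference passed without library G (q = 0.0104). Nfkbie, another cytoplasmic IkB gene, followed Tnf in time. It was at 1.48, 1.17 and 1.82 CPM in sham and 2.26, 2.20 and 1.97 CPM at 4 h, groups that did not overlap but did not pass the test (0.34 ± 0.18, q = 0.382). At 24 h it was at 8.97, 6.16, 6.40 and 10.0 CPM, a rise of 5.29-fold over sham (1.82 ± 0.17, q = 4.31e-06) and of 3.68-fold over 4 h (1.48 ± 0.17, q = 2.41e-05).

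Tnfaip3, Birc3 and Zc3h12a encode enzymes that act on signalling complexes or on transcripts, and their order of change was the same at both times. Tnfaip3 encodes a ubiquitin-editing enzyme that shuts down signalling from TNF receptors. It was at 3.18, 3.27 and 3.87 CPM in sham, 13.5, 11.1 and 14.0 CPM at 4 h and 22.3, 26, 13.7 and 16.6 CPM at 24 h. Every infarcted heart was above every sham heart, and Tnfaip3 rose 3.73-fold at 4 h (1.64 ± 0.20, q = 0.00137) and 5.71-fold at 24 h (2.18 ± 0.19, q = 2.76e-06). Birc3 encodes a ubiquitin ligase of TNF receptor complexes that also limits cell death. It was at 4.85, 6.15 and 6.78 CPM in sham, 12, 16.8 and 12.1 CPM at 4 h and 25.8, 29.9, 14.2 and 20.4 CPM at 24 h. Its rise of 2.30-fold at 4 h was close to the threshold (1.07 ± 0.24, q = 0.0421). The call was lost in 7 of 10 fits with 1 library left out, namely without 4 h library C, D or E, sham library D, H or I, or 24 h library H, with q between 0.00587 and 0.173 over the 10 fits. At 24 h Birc3 rose 3.81-fold (1.73 ± 0.22, q = 4.43e-05). Zc3h12a encodes a ribonuclease that degrades transcripts of inflammatory cytokines. It was at 3.76, 4.72 and 3.93 CPM in sham, 8.24, 9.19 and 7.97 CPM at 4 h and 19.7, 16.9, 9.18 and 14.7 CPM at 24 h. The groups at 4 h and in sham did not overlap, but the 2.05-fold difference missed the threshold (0.88 ± 0.22, q = 0.0633), which it passed without 24 h library C or G (lowest q = 0.00349). At 24 h Zc3h12a rose 3.65-fold (1.61 ± 0.20, q = 3.74e-05).

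The subunit genes passed the test at 24 h only, with the smallest log2 changes of the 10 members at that time. Nfkb1 encodes the precursor of the DNA-binding subunit of the classical dimer. It was at 33.5, 33.3 and 33.8 CPM in sham, 38.2, 36.5 and 37.7 CPM at 4 h and 56.9, 52.8, 54.6 and 46.5 CPM at 24 h. Nfkb2 encodes the precursor of the partner of RelB in the alternative pathway. It was at 16.4, 16.3 and 16.5 CPM in sham, 17.3, 17.3 and 18.6 CPM at 4 h and 38, 34.9, 34.6 and 36.6 CPM at 24 h. Relb itself was at 5.86, 7.95 and 8.35 CPM in sham, 8.99, 10.4 and 8.94 CPM at 4 h and 23.1, 20.9, 18.6 and 20.6 CPM at 24 h. For all 3 genes the 4 h libraries lay above the sham libraries and the 24 h libraries above both, with no overlap. None passed the test at 4 h (q = 0.447 for Nfkb1, 0.603 for Nfkb2 and 0.265 for Relb). At 24 h Relb rose 2.81-fold (log2 change 1.39 ± 0.13, q = 4.19e-06), Nfkb2 2.20-fold (1.09 ± 0.08, q = 1.07e-06) and Nfkb1 1.57-fold (0.63 ± 0.09, q = 7.50e-05). Nfkb2 had the lowest q of the 10 members in that comparison.

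**Figure D1:**
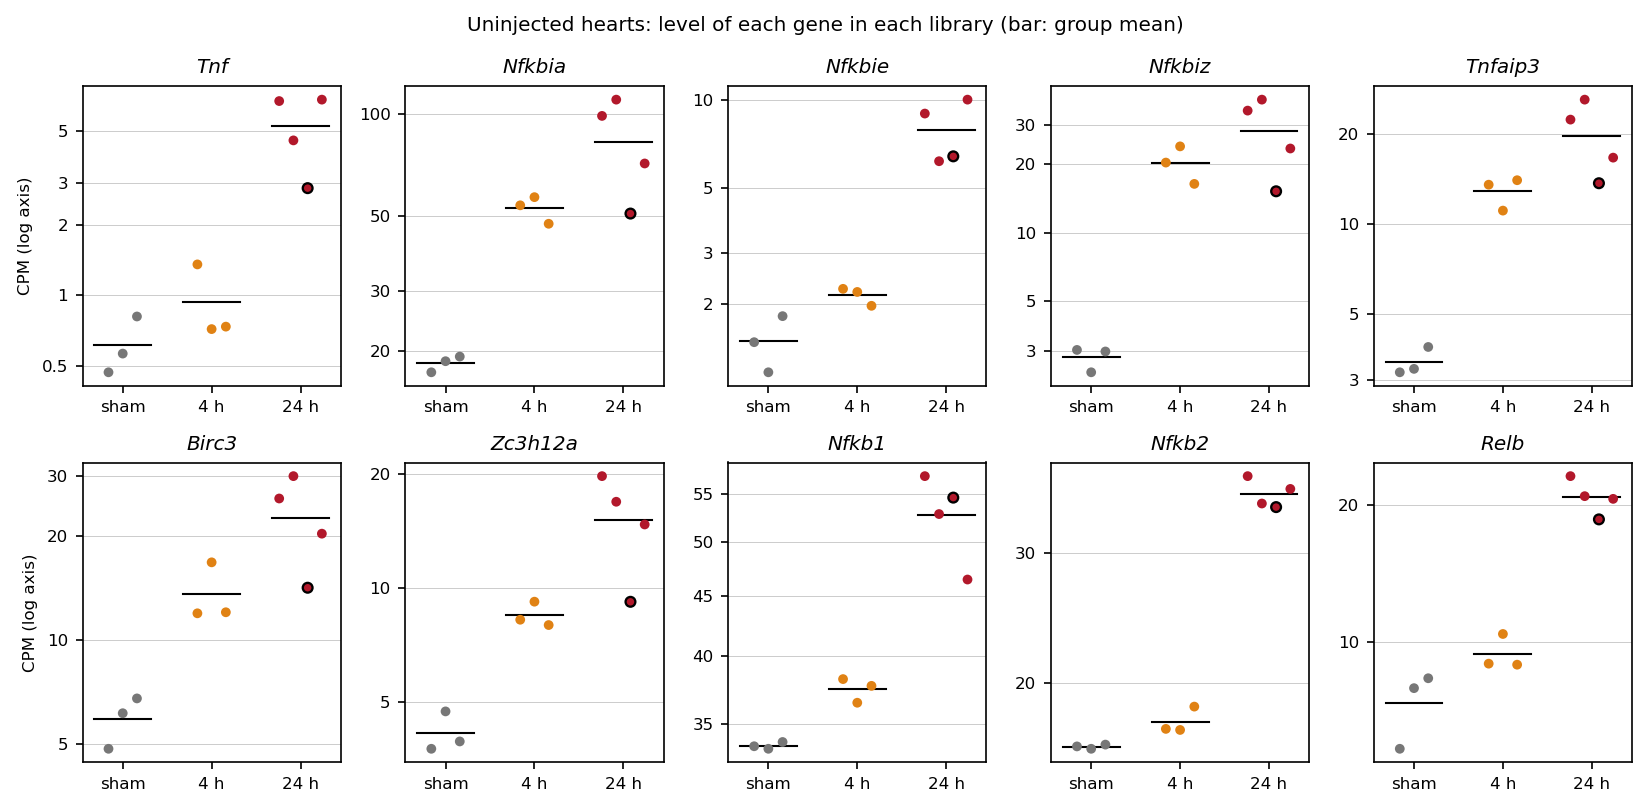
Level of each of the 10 members in the uninjected hearts (CPM on a log axis), with a point for each of the 3 sham, 3 early (4 h) and 4 late (24 h) libraries and a bar at each group mean. The ringed point is 24 h library G, which was the lowest 24 h library for 8 of the 10 members.

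Counted over the 10 members, 4 rose 4 h post-MI (Nfkbiz, Tnfaip3, Nfkbia and Birc3) and none fell, against 1.55% of all tested genes called higher and 0.817% called lower. An unadjusted p under 0.05 was found for 6 members and for 16.5% of all genes. The groups did not overlap for 9 members, all higher at 4 h, against 10.9% of all genes. The median log2 change was 0.61 for the members and -0.03 for all genes. At 24 h all 10 members rose, against 35.6% of all genes higher and 30.3% lower, with no overlap between the groups for any of them, against 35.3% of all genes, and 69.1% of all genes had an unadjusted p under 0.05. Their median log2 change was 1.77, beside 0.04 for all genes. Between 4 h and 24 h, 9 members rose, against 37.2% of all genes higher and 26.7% lower (67.6% had an unadjusted p under 0.05), and the groups did not overlap for Tnf, Nfkbie, Nfkb1, Nfkb2 and Relb, against 37%. The other 4 of the 9 changed less, Zc3h12a 1.78-fold (q = 0.00856), Birc3 1.66-fold (q = 0.0227), Nfkbia 1.57-fold (q = 0.0321) and Tnfaip3 1.53-fold (q = 0.0260). The calls of Nfkbia and Birc3 were lost without 24 h library C or D or 4 h library C or E (highest q = 0.107 and 0.0823). The call of Tnfaip3 was lost without 24 h library C or D or 4 h library D (highest q = 0.0997). A rescaling of the libraries by the median ratio also lost the calls of Nfkbia, Tnfaip3 (q = 0.0806 by limma) and Birc3 (q = 0.0695). Nfkbia was lost with only the groups compared as well, while Nfkbiz was gained with array weights. The comparisons share libraries, so their results are not independent of each other.

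**Figure D2:**
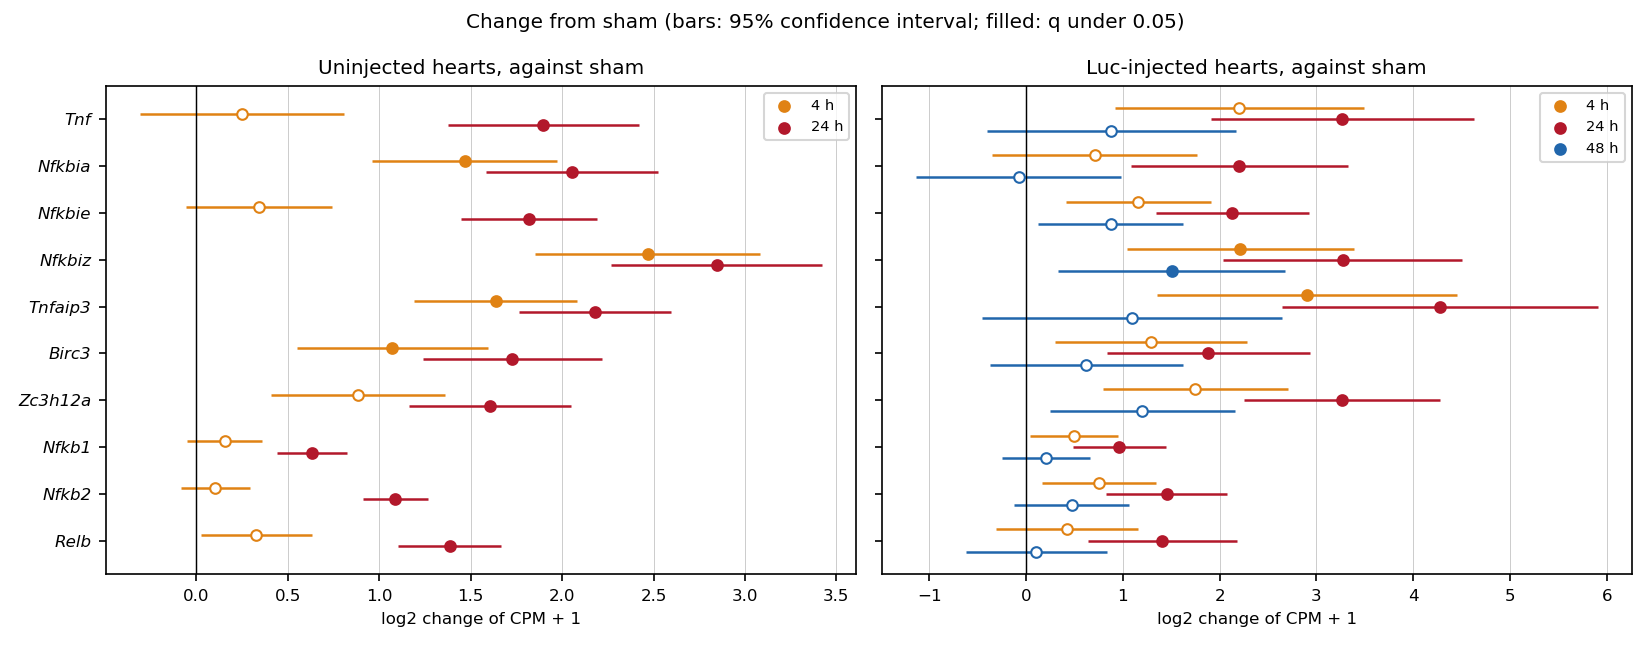
Log2 change from sham on the log2(CPM + 1) scale with 95% confidence intervals, for uninjected hearts at 4 h and 24 h (left) and Luc hearts at 4 h, 24 h and 48 h (right); filled points have q under 0.05. At 24 h all 10 members were higher than sham in both tables, while at 4 h the filled points were 4 on the left and 2 on the right.

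Library G had the lowest value of the 4 hearts at 24 h for 8 members, against 20.3% of all genes, and the exceptions were Nfkbie and Nfkb1. In library G, Tnf was at 2.86 CPM, beside 4.57 to 6.81 CPM in the others. This library also had the lowest neutrophil marker sum, 311 CPM beside 837 to 1949 CPM, the lowest Ptprc, 26.5 CPM beside 34 to 61.7 CPM, and the highest cardiomyocyte marker sum, 39101 CPM. All 10 members still rose at 24 h without it.

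In the second table, the mean of every member was higher in Luc hearts than in sham hearts at 4 h, higher again at 24 h, and lower at 48 h than at 24 h. Tnf was at 0.196 and 0.127 CPM in the sham libraries and at 4.72, 4.28, 4.57 and 3.87 CPM in Luc libraries 1 to 4 at 4 h. At 24 h it was at 36.3, 4.86 and 5.41 CPM in Luc libraries A, C and D, and at 48 h at 0.547, 1.72, 1.92 and 0.691 CPM in libraries 1 to 4. The Luc hearts lay above both sham hearts at every time, and library A at 24 h lay far above all others. At 4 h Tnf was 27.0-fold higher than sham (log2 change 2.20 ± 0.62, 95% interval 0.92 to 3.49), which did not pass the test (q = 0.0803). It passed without both libraries A (q = 1.14e-05), which share in the estimate of the spread. At 24 h Tnf rose 96.3-fold (3.27 ± 0.65, q = 0.000658). Without library A the rise was 31.8-fold (2.40). The sham level, 0.196 CPM or less, makes these folds imprecise, and the depth behind it is unknown.

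Among the IkB genes of these hearts, Nfkbiz was the one called at every time. Nfkbia was at 43.7 and 52.3 CPM in sham and at 91.4, 71.9, 78.0 and 75.2 CPM in Luc hearts at 4 h, which did not overlap but did not pass the test (0.71 ± 0.51, q = 0.558). At 24 h it was at 330, 178 and 190 CPM, a rise of 4.85-fold (2.20 ± 0.54, q = 0.00350), or 3.84-fold without library A. At 48 h it was at 81.3, 28.3, 76.4 and 23.6 CPM, on both sides of the sham level (-0.08). Nfkbiz was at 2.74 and 4.92 CPM in sham, 21.1, 20.8, 22 and 19.4 CPM at 4 h, 95.8, 31.1 and 29.2 CPM at 24 h and 19.9, 8.59, 18.7 and 7.05 CPM at 48 h. It was higher than both sham hearts at every time and rose 5.44-fold at 4 h (2.21 ± 0.57, q = 0.0487), 13.6-fold at 24 h (3.27 ± 0.60, q = 0.000291) and 3.54-fold at 48 h (1.5 ± 0.57, q = 0.0483). The 24 h rise was 7.87-fold without library A. Nfkbie was at 1.92 and 1.21 CPM in sham, 4.96, 4.32, 5.18 and 4.27 CPM at 4 h, 18.7, 7.89 and 6.86 CPM at 24 h and 4.71, 3.24, 4.21 and 2.71 CPM at 48 h. It did not overlap with sham at any time and passed the test at 24 h, with a rise of 7.14-fold (2.13 ± 0.38, q = 0.000238), or 4.71-fold without library A.

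Tnfaip3 had the highest change from sham in Luc hearts at 4 h and 24 h on the log2(CPM + 1) scale, whereas by the ratio of means, or with a pseudocount of 0.1, Tnf was above it. Tnfaip3 was at 2.90 and 5.01 CPM in sham, 39.5, 31.3, 41.3 and 30.05 CPM at 4 h, 257, 54.0 and 57.4 CPM at 24 h and 14.7, 6.11, 16.6 and 4.81 CPM at 48 h. It rose 8.98-fold at 4 h (2.90 ± 0.75, q = 0.0498) and 31.0-fold at 24 h (4.28 ± 0.79, q = 0.000312), and at 48 h the groups overlapped (q = 0.286). Without library A the 24 h rise was 14.1-fold (log2 change 3.55). Birc3 was at 8.27 and 9.22 CPM in sham, 25.9, 20.3, 25.7 and 20.1 CPM at 4 h, 74.9, 27.5 and 20.4 CPM at 24 h and 21.3, 10.6, 18.8 and 8.90 CPM at 48 h. It rose 4.68-fold at 24 h (1.88 ± 0.51, q = 0.00660), or 2.74-fold without library A. Zc3h12a was at 1.99 and 3.87 CPM in sham, 13, 11.3, 10.9 and 12.2 CPM at 4 h, 74.7, 23.5 and 25.7 CPM at 24 h and 10.1, 5.35, 11.5 and 5.72 CPM at 48 h. It stood above both sham hearts at every time, missed the threshold at 4 h (q = 0.0574) and 48 h (q = 0.0528), and rose 14.1-fold at 24 h (3.27 ± 0.49, q = 3.52e-05), or 8.39-fold without library A.

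The subunit genes again had the smallest log2 changes at 24 h. Nfkb1 was at 23.4 and 33.3 CPM in sham, 38.4 to 42.7 CPM in Luc hearts at 4 h, 42.3 to 76.3 CPM at 24 h and 29.2 to 36 CPM at 48 h. Nfkb2 was at 8.67 and 17.3 CPM in sham, 18.0 to 26.9 CPM at 4 h, 26.6 to 61.4 CPM at 24 h and 15.1 to 19.7 CPM at 48 h. Relb was at 7.04 and 9.33 CPM in sham, 8.63 to 14.6 CPM at 4 h, 15.8 to 40.4 CPM at 24 h and 6.72 to 12.1 CPM at 48 h. Each passed the test at 24 h only, where Relb rose 3.08-fold (q = 0.00589), Nfkb2 2.96-fold (q = 0.000901) and Nfkb1 2.01-fold (q = 0.00291). Without library A these rises were 2.15-fold, 2.07-fold and 1.67-fold. The differences between times are given below.

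**Figure D3:**
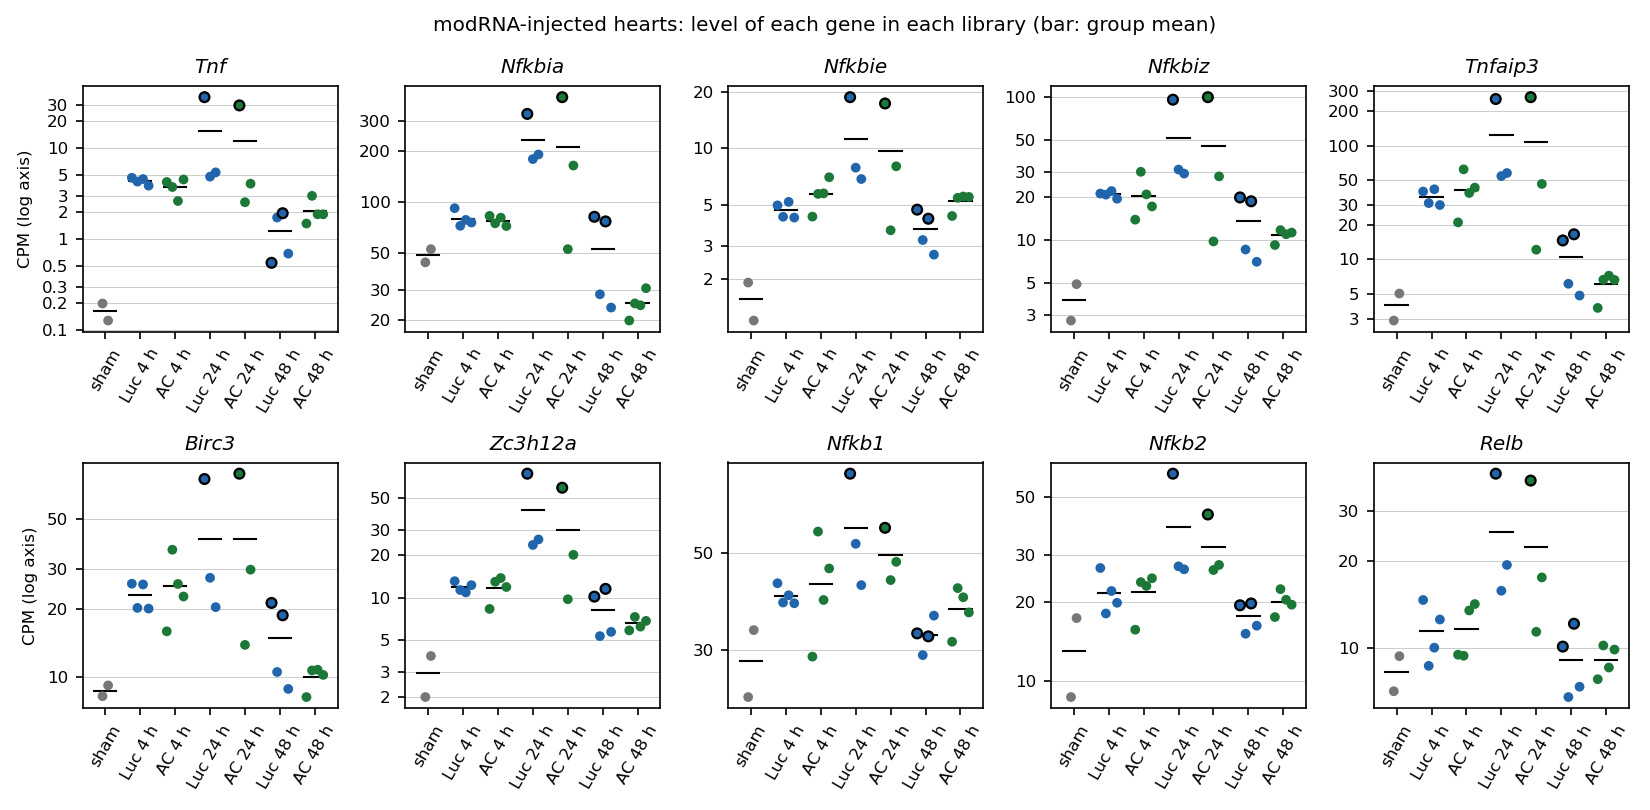
Level of each of the 10 members in the 24 libraries (CPM on a log axis) of sham (n = 2, grey), Luc hearts (blue) and AC hearts (green) at 4 h (n = 4 each), 24 h (n = 3 each) and 48 h (n = 4 each), with a bar at each group mean. Ringed points are both 24 h libraries lettered A, which lie above the other 24 h libraries of their group for all 10 members, and libraries 1 and 3 of the Luc hearts at 48 h.

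Over the 10 members, 2 rose in Luc hearts at 4 h (Tnfaip3 and Nfkbiz), against 1.25% of all genes higher and 0.295% lower, and 9 did not overlap with sham, against 17.2% of all genes. Only Relb overlapped. The median log2 change was 1.23 for the members and 0.02 for all genes. Both calls were near the threshold: that of Nfkbiz was lost in 15 and that of Tnfaip3 in 17 of 24 fits with 1 library left out, among them each sham and each Luc 4 h library (highest q = 0.487 and 0.453). The other libraries were AC 4 h libraries 3 and 4, AC 24 h library D, Luc 24 h library C, all AC 48 h libraries, Luc 48 h library 2 and, for Tnfaip3, Luc 24 h library D and Luc 48 h library 1. Without both 24 h libraries A, 6 members rose at 4 h, Tnf, Nfkbiz, Nfkbie, Tnfaip3, Birc3 and Zc3h12a. The count was 5 without AC 24 h library A or C and 4 without Luc 24 h library A.

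At 24 h all 10 members rose over sham, against 25.3% of all genes higher and 8.79% lower, and none overlapped, against 37.4% of all genes (44.4% had an unadjusted p under 0.05). A rescaling of the libraries by the median ratio gave 2294 genes higher and 2047 lower in place of 3172 and 1103, moved the all-gene median by -0.17 (log2), and left the 10 calls in place. The median log2 change was 2.17 for the members and 0.16 for all genes. All 10 were still called without both libraries A, with log2 changes of 0.74 to 3.55. Without sham library 1, 5 were called, and Nfkbia, Birc3, Nfkb1, Nfkb2 and Relb were not (q between 0.0531 and 0.0962). At 48 h 1 member, Nfkbiz, was above sham, against 13.7% of all genes higher and 16.4% lower, and Tnf, Nfkbiz, Nfkbie and Zc3h12a did not overlap with sham, against 19.2%. An unadjusted p under 0.05 was found for 3 members and for 40.7% of all genes. The call of Nfkbiz was lost in 16 of 24 fits with 1 library left out (highest q = 0.298). These included both sham libraries, all 4 Luc 4 h libraries, AC 4 h libraries 3 and 4, AC 24 h library D, Luc 24 h library C, all 4 AC 48 h libraries and Luc 48 h libraries 1 and 3. The count rose to 3 without AC 24 h library A or C or Luc 24 h library A, and to 2 without Luc 48 h library 2 or 4. Without both libraries A, 4 members were called at 48 h (Tnf, Nfkbiz, Nfkbie and Zc3h12a), and without Luc 48 h libraries 1 and 3 none was.

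From 4 h to 24 h in Luc hearts 5 members rose, against 24.5% of all genes higher and 7.8% lower (1969 genes higher and 1789 lower with the median-ratio scaling, in place of 3079 and 979). The groups did not overlap for 7 members, against 32.9% of all genes, and 42.9% of all genes had an unadjusted p under 0.05. The 5 were Zc3h12a, 3.48-fold (q = 0.00714), Nfkbia, 2.94-fold (q = 0.0148), Nfkbie, 2.38-fold (q = 0.0232), Relb, 2.20-fold (q = 0.0191), and Nfkb2, 1.77-fold (q = 0.0368). Without library A the same ratios were 2.07, 2.33, 1.57, 1.54 and 1.24. All 5 calls were lost without Luc 24 h library A, 2 remained without both libraries A (Nfkbia, q = 0.0310, and Zc3h12a, q = 0.0136), 2 remained without Luc 4 h library 2 and 3 without Luc 4 h library 4. Nfkbie was lost without either of these Luc 4 h libraries (highest q over all such fits 0.209), Nfkb2 without Luc 4 h library 2, 3 or 4 (0.347), and Relb without Luc 4 h library 2 (0.175). Nfkbiz and Tnfaip3 were gained without AC 24 h library A or C (lowest q = 0.0391 and 0.0364), and Nfkb1 without AC 4 h library 1 or 2 or Luc 24 h library D (0.0244). From 24 h to 48 h all 10 members fell in Luc hearts, against 32.6% of all genes lower and 9.32% higher (2085 lower and 2003 higher with the median-ratio scaling). On the log2 scale Tnfaip3 fell by 3.18 ± 0.66 (q = 0.000763), Tnf by 2.39 ± 0.55 (q = 0.00172), Nfkbia by 2.28 ± 0.45 (q = 0.000547), Zc3h12a by 2.06 ± 0.41 (q = 0.000532) and Nfkbiz by 1.77 ± 0.50 (q = 0.00753). The other 5 fell by 0.75 (Nfkb1) to 1.30 (Relb). The median log2 change of the members was -1.53, beside -0.25 for all genes. Cardiomyocyte markers went from 71231 to 89610 CPM at 24 h to 36629 to 52567 CPM at 48 h, neutrophil markers from 47.3 to 95.7 CPM to 137 to 446 CPM, and atrial genes from 45.5 to 190 CPM to 4.35 to 63.3 CPM, and their part in the falls was not tested. The groups did not overlap for 9 members, with Birc3 as the exception, against 32.4% of all genes. Without both libraries A, 9 members fell, by 0.53 (Nfkb1) to 2.46 (Tnfaip3), with Tnf at -1.52 in place of -2.39, and Birc3 missed the threshold (-0.72, q = 0.0791). Nfkbiz also missed it without Luc 24 h library A alone (q = 0.0692), and Birc3 did so without Luc 24 h library A or Luc 48 h library 2 or 4 (highest q = 0.185). With the median-ratio scaling Birc3 and Nfkb1 missed it too, Nfkb1 narrowly (q = 0.05001 by limma).

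In AC hearts no member passed the test from 4 h to 24 h by limma, against 14.9% of all genes higher and 3.8% lower, and 4 members had an unadjusted p under 0.05, as did 33.9% of all genes. The members' log2 changes ran from 0.24 (Nfkb1) to 0.98 (Nfkbia), with a median of 0.57 beside 0.11 for all genes. Without both libraries A they ran from -0.66 to 0.32, and without AC 24 h library C alone 5 members rose, Nfkbia, Nfkbiz, Nfkbie, Relb and Zc3h12a (highest q = 0.036). From 24 h to 48 h 8 members fell in AC hearts, against 25.5% of all genes lower and 19% higher, with Nfkb1 (-0.40, q = 0.0984) and Nfkbie (-0.57, q = 0.155) as the exceptions. On the log2 scale Tnfaip3 fell by 3.0 ± 0.66 (q = 0.000939), Nfkbia by 2.58 ± 0.45 (q = 0.000100), Zc3h12a by 1.66 ± 0.41 (q = 0.00237), Birc3 by 1.60 ± 0.42 (q = 0.00411) and Tnf by 1.44 ± 0.55 (q = 0.0360). With both libraries A left out 4 members fell, Nfkbia, Tnfaip3, Birc3 and Zc3h12a, by 0.97 to 1.87. The count was 3 without AC 24 h library A alone, where Tnf, Nfkbiz, Birc3, Nfkb2 and Relb were lost, and 5 without AC 48 h library 1. Tnf was also lost without AC 48 h library 4 or 5 (highest q over all such fits 0.437), Nfkbiz without AC 24 h library D (0.317), and Nfkb2 without any of these 3 (0.245), while Nfkbie was gained without AC 24 h library C (q = 0.00575). Under other settings listed below, Nfkb2 was lost with no filter, with median-ratio scaling and without subtraction of 1. Tnf was lost with only the groups compared and without subtraction of 1, and Nfkbiz with only the groups compared. Array weights gained Nfkbie and Nfkb1, and only the groups compared gained Nfkb1.

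Both 24 h libraries lettered A carried far more transcript of the feedback genes than the other hearts of their group. In both the AC and the Luc hearts, library A was above libraries C and D for all 10 members, against 8% of all genes (30.7% in the AC hearts alone and 36.7% in the Luc hearts alone). Library A was singled out after the data were seen, so this share is a description and not a test. In AC hearts, Tnf was at 29.5 CPM in library A and at 2.54 and 4.06 CPM in C and D. Tnfaip3 was at 267 CPM in library A and at 12.2 and 46.0 CPM in C and D, and Nfkbia at 414, 52.4 and 163 CPM in the same order. The ratio of library A to the mean of C and D was 8.93 for Tnf, 9.16 for Tnfaip3, 5.30 for Nfkbiz and 4.00 for Zc3h12a in AC hearts. It was 7.08, 4.61, 3.18 and 3.04 for the same genes in Luc hearts. For Nfkb1 it was 1.26 and 1.61, the lowest of the members in each group. Leukocyte markers did not follow this order in both groups. Ptprc was at 6.56 CPM in AC library A, beside 9.02 and 6.06 CPM in C and D, and at 6.24 CPM in Luc library A, beside 7.59 and 6.70 CPM. Neutrophil markers summed to 51.3 CPM in AC library A, beside 318 and 88.8 CPM, and to 95.7 CPM in Luc library A, beside 47.3 and 58.5 CPM. Erythroid markers did follow it in both groups. They summed to 405 CPM in AC library A, beside 181 and 208 CPM, and to 945 CPM in Luc library A, beside 629 and 398 CPM. Atrial genes were high in all 24 h libraries of this table, from 23.5 to 353 CPM, beside 0.945 to 3.02 CPM in its sham and 4 h libraries. They were highest of the AC hearts in library A (353 CPM) and in the middle of the Luc hearts (143 CPM, beside 45.5 and 190 CPM). The part of these markers in the result was not tested.

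**Figure D4:**
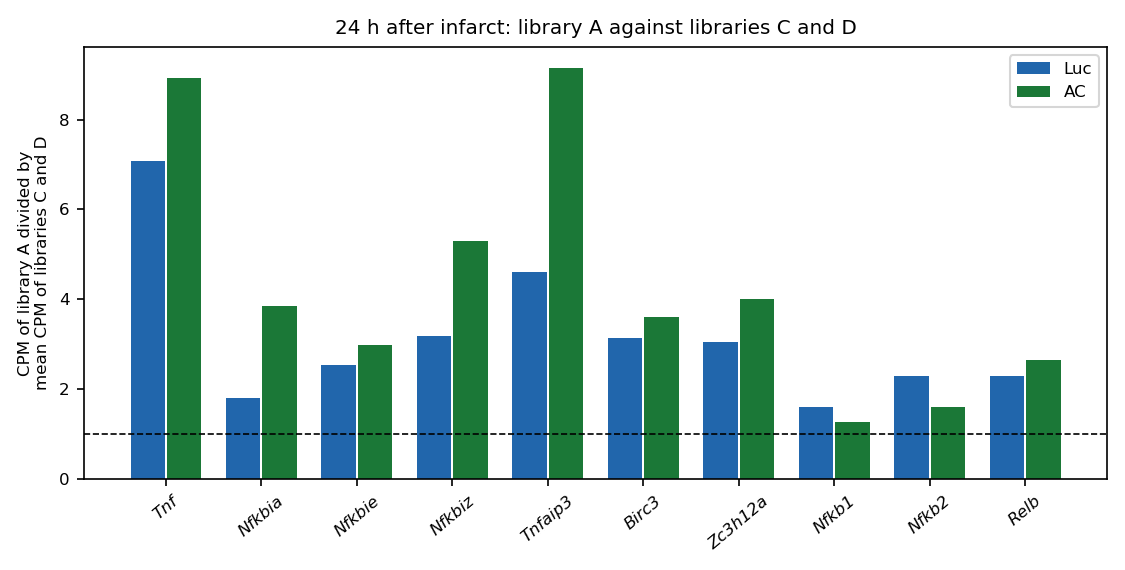
Ratio of the CPM of 24 h library A to the mean of libraries C and D, for each member in Luc hearts (blue) and AC hearts (green), with a dashed line at 1. All 20 bars are above 1, from 1.26 for Nfkb1 to 9.16 for Tnfaip3, both in AC hearts.

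At 48 h, libraries 1 and 3 of the Luc hearts were above libraries 2 and 4 for 8 members, against 31.6% of all genes, with Tnf and Nfkb1 as the exceptions. Nfkbia was at 81.3 and 76.4 CPM in libraries 1 and 3 and at 28.3 and 23.6 CPM in libraries 2 and 4. Tnf crossed this order, with 0.547 and 1.92 CPM in libraries 1 and 3 and 1.72 and 0.691 CPM in libraries 2 and 4. Cardiomyocyte markers split the same way, at 52567 and 44665 CPM in libraries 1 and 3 and 38164 and 36629 CPM in libraries 2 and 4, as did neutrophil markers, at 446 and 212 CPM and at 203 and 137 CPM, and endothelial markers, at 586 and 545 CPM and at 353 and 485 CPM. Ptprc ran from 15.9 to 16.9 CPM over the 4 libraries. The part of these in the split was not tested. In the AC hearts at 48 h Nfkbia was at 19.8, 25, 24.4 and 30.8 CPM, below libraries 1 and 3 and around the level of libraries 2 and 4.

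No member passed the test between AC and Luc hearts at any time. At 4 h the log2 differences of AC minus Luc ran from -0.18 (Tnf, 95% interval -1.23 to 0.87) to 0.23 (Nfkbie, -0.39 to 0.84), against 0.00796% of all genes called higher and 0% lower. No member had an unadjusted p under 0.05, against 1.04% of all genes, and the AC and Luc libraries overlapped for every member, against 0.82% of all genes with no overlap and higher and 1.2% with no overlap and lower. The intervals leave room for more than a 2-fold difference in Tnfaip3 (-1.14 to 1.38) but not in Nfkb1 (-0.32 to 0.42). At 24 h all 10 differences were negative, from -0.77 (Tnfaip3, -2.23 to 0.69) to -0.11 (Birc3, -1.05 to 0.83), with a median of -0.37 beside -0.03 for all genes. No member had an unadjusted p under 0.05, against 4.77% of all genes, the q values were 0.991 to 0.997, and the AC and Luc libraries overlapped for every member, against 2.41% of all genes with no overlap and higher and 6.92% lower. Genes called by q made up 0.00796% higher and 0% lower. Without both libraries A the differences ran from -1.19 to 0.00406, with none called, and with array weights 7 of the 10 turned positive. Leaving out AC 24 h library C alone also turned 7 of the 10 positive, as did leaving out Luc 24 h library A alone, with none called. At 48 h the differences ran from -0.85 ± 0.42 for Nfkbia (95% interval -1.72 to 0.02, unadjusted p = 0.0546 and q = 0.174 by limma) to 0.49 for Tnf (-0.56 to 1.54). No member was called and none had an unadjusted p under 0.05, against 12.1% of all genes higher and 3.27% lower by q and 30.3% with such a p. The AC and Luc libraries overlapped for every member at 48 h, against 15.5% of all genes with no overlap and higher and 3.58% lower. With the median-ratio scaling, 823 genes were higher and 802 lower in place of 1516 and 410. Without Luc libraries 1 and 3 the member differences ran from -0.06 to 0.64, with none called, and with array weights Nfkbie was called higher (0.57, q = 0.0481). The change of the AC minus Luc difference between times was not called for any member in any of the 3 pairs of times by limma, and none had an unadjusted p under 0.05, against 3.02% of all genes for 24 h against 4 h, 18.7% for 48 h against 4 h and 17% for 48 h against 24 h. In the same comparisons 0% to 2.88% of all genes were called higher and 0.00796% to 0.47% lower.

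**Figure D5:**
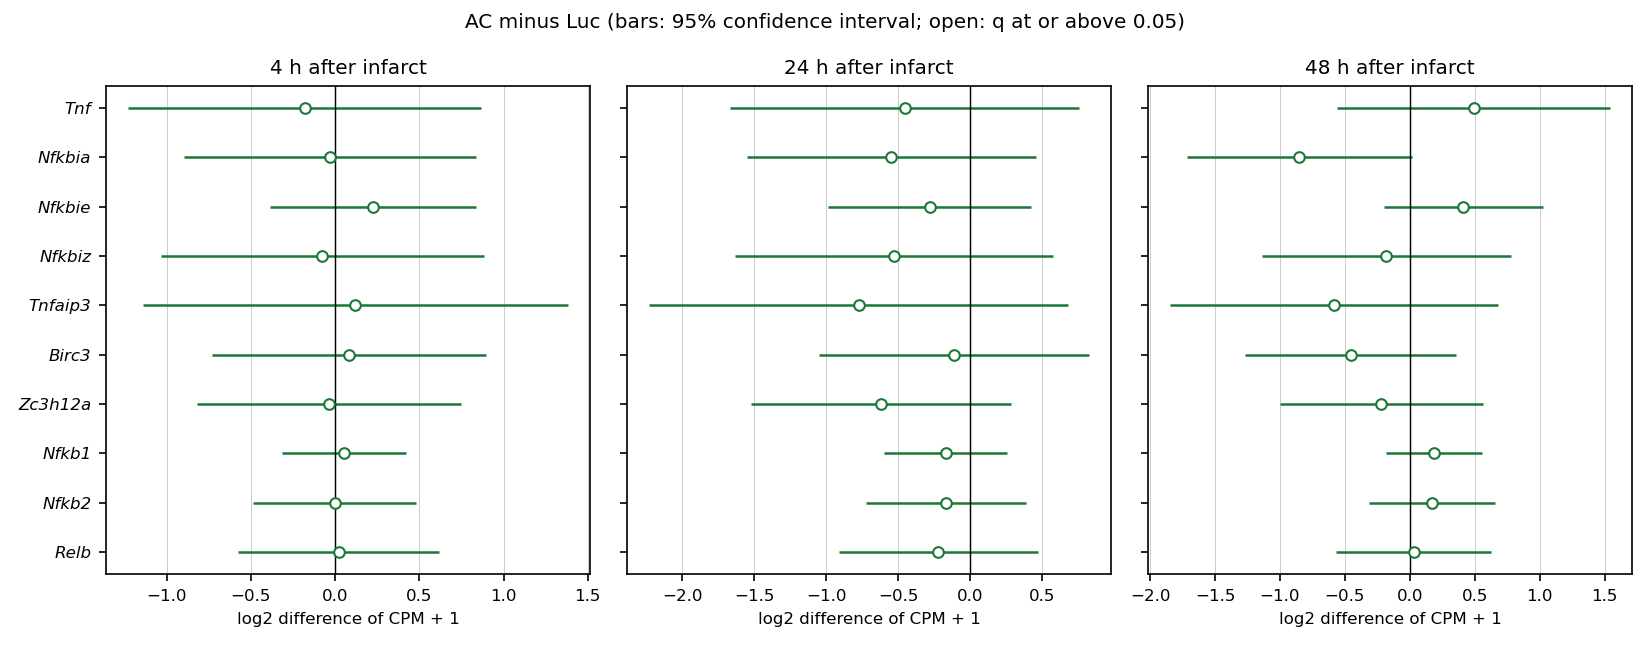
Log2 difference of AC minus Luc hearts on the log2(CPM + 1) scale with 95% confidence intervals at 4 h, 24 h and 48 h. All points are open because no member had q under 0.05, and every interval includes 0.

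Other genes of the pathway were taken from fixed lists, whose counts in uninjected hearts stand beside 1.55% of all genes higher and 0.817% lower at 4 h, and 35.6% higher and 30.3% lower at 24 h. The list of subunits holds Rel and Rela beside the members Nfkb1, Nfkb2 and Relb. Rel, a subunit gene of lymphoid and myeloid cells, went up early and came back. It was at 5.79, 5.4 and 5.72 CPM in sham, 10.2, 15.0 and 10.8 CPM at 4 h, and 5.82, 7.23, 5.32 and 4.95 CPM at 24 h. Rel rose at 4 h (log2 change 0.95, q = 0.0101) and fell from 4 h to 24 h (-0.92, q = 0.00026). Rela, the classical activating subunit, was at 19.996, 23.5 and 24.6 CPM in sham, 28.9, 30.4 and 25 CPM at 4 h and 50.6, 50.9, 44.9 and 49.0 CPM at 24 h, a rise of 1.08 on the log2 scale at 24 h.

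Among other IkB proteins and inhibitors, 2 of 15 tested genes rose at 4 h and 12 of 15 rose at 24 h, with none lower. Zfp36, whose protein binds AU-rich elements and destroys cytokine transcripts, had the highest log2 change of these at 4 h. It was at 20.7, 20.9 and 25.5 CPM in sham, 195, 230 and 225 CPM at 4 h and 111, 118, 60.2 and 86.4 CPM at 24 h. It rose at 4 h (3.22), stayed above sham at 24 h (1.98) and fell between (-1.24), and in Luc hearts it was at 279 to 321 CPM at 4 h beside 27.7 and 48.8 CPM in sham (3.01, q = 0.0005). Bcl3, a nuclear IkB gene, rose at 4 h (1.36) and 24 h (2.26), and in Luc hearts at 4 h (2.06) and 24 h (3.11). Nfkbid, another nuclear IkB gene, and Otulin, whose product removes linear ubiquitin chains, rose at 24 h in uninjected hearts (2.50 and 2.02). In Luc hearts at 24 h Nfkbid was up by 1.04, and Otulin was not called (0.28, q = 0.38).

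Of 22 tested genes of the kinase complex and the steps above it, 1 rose at 4 h, 12 rose and 3 fell at 24 h. Ripk1, a kinase of TNF receptor complexes, was the gene that rose at 4 h (0.75, q = 0.028). Ikbke, a kinase related to the IkB kinases, rose at 24 h by 2.76, Traf1, an adaptor of TNF receptors, by 2.01, and Myd88, the adaptor of Toll-like and interleukin 1 receptors, by 1.89. The genes that fell were Tab1 (-0.64), Ikbkg (-0.58), which encodes the regulatory subunit of the kinase complex, and Irak1 (-0.28). In Luc hearts at 24 h, Ikbke rose by 1.45, Traf1 by 1.05 and Myd88 by 2.21.

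Of 9 tested genes for TNF release and TNF family receptors and ligands, none rose at 4 h and 7 rose at 24 h. Tnfrsf1b, the second TNF receptor gene, was at 7.41, 8.03 and 7.73 CPM in sham, 8.20, 8.23 and 6.77 CPM at 4 h and 64.0, 49.6, 23.5 and 39.0 CPM at 24 h. It rose by 2.28 at 24 h, and by 2.00 in Luc hearts at 24 h. Tnfrsf12a, a receptor gene of injured tissue, rose by 3.44 at 24 h and by 2.44 in Luc hearts, and the lymphotoxin gene Ltb by 2.22 in the uninjected hearts. Among 5 genes of cell-death inhibitors, 3 rose at 24 h, Bcl2a1b by 3.15, Bcl2l1 by 1.95 and Cflar by 0.51. In Luc hearts at 24 h, Bcl2l1 rose by 1.90 and Cflar by 1.38, and Bcl2a1b was not called (1.01, q = 0.067). At 48 h Bcl2l1 was lower in AC than in Luc hearts (-0.71, q = 0.038).

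Textbook targets of NF-kB outside the members gave the most calls at 4 h, 11 of 20 tested genes, all higher, and 17 were higher and 2 lower at 24 h. Il6, the gene of an acute-phase cytokine, was at 0.0723, 0.121 and 0.162 CPM in sham, 25.1, 25.6 and 23.3 CPM at 4 h and 35.1, 25.1, 14.3 and 26.4 CPM at 24 h. Its log2 change over sham was 4.52 at 4 h and 4.49 at 24 h, that of the chemokine gene Cxcl1 4.28 and 4.65, and that of the endothelial selectin gene Sele 3.23 and 3.40. Il1b, Il1rn and Cxcl2 rose by 5.74, 5.98 and 5.47 at 24 h, beside 2.21, 1.08 and 2.87 at 4 h, where Il1rn was not called, and each rose from 4 h to 24 h. Sod2, a mitochondrial antioxidant enzyme gene, and Cd83, a marker gene of activated antigen-presenting cells, were lower at 24 h (-0.93 and -0.41), and Cd83 was higher at 4 h (0.97). In the second table, Sele was at 85.2 CPM in Luc 24 h library A, beside 10.5 and 9.68 CPM in C and D, and at 97.7 CPM in AC library A, beside 5.43 and 10.1 CPM. Cxcl1 was at 675 CPM in Luc library A, beside 86.6 and 83.0 CPM, and at 632 CPM in AC library A, beside 24.0 and 63.2 CPM.

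In Luc hearts at 4 h over sham, Rel was the subunit gene outside the members that rose, and the lists gave 3 of 17 other inhibitors, 3 of 22 kinase and upstream genes, 1 of 8 TNF family genes, none of 5 cell-death inhibitor genes and 5 of 19 other targets, all higher, against 1.25% of all genes. At 24 h Rel and Rela rose and the lists gave 9, 11, 6, 3 and 15 genes higher, against 25.3%, and 1 upstream, 1 TNF family and 1 target gene lower. From 24 h to 48 h, against 32.6% of all genes lower, Rel, Rela, 9 inhibitors, 12 upstream genes, 4 TNF family genes, 3 cell-death inhibitors and 12 targets fell, and 1 upstream gene and 1 target gene rose. Between AC and Luc hearts none of the lists held a called gene at 4 h or 24 h, against 0.00796% of all genes higher and 0% lower at each time. At 48 h 2 inhibitor genes, 1 TNF family gene and 1 target gene were higher in AC hearts, against 12.1% of all genes. At that time 1 cell-death inhibitor gene and 1 target gene were lower, against 3.27% of all genes.

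The patterns of Tnf and Nfkbia were set beside those of all other tested genes by the root mean square difference of log2(CPM + 1), standardized per gene over the libraries of a table. Over the 10 uninjected libraries, the genes most like Tnf were Zrsr2 (0.129), Plpp2 (0.147) and Phf11d (0.156). Among the members Nfkbie was nearest, at rank 39 (0.200), while Nfkbia was at rank 3594. The genes most like Nfkbia were Pim1 (0.152), Nts (0.158) and Tnfaip3 (0.161), with Birc3 at rank 5 and Nfkbiz at rank 6. Over the 24 libraries, the genes most like Tnf were Rnd1 (0.335), Sele (0.411) and Zc3h12a (0.416), with Nfkbie at rank 7, Nfkbiz at rank 11 and Tnfaip3 at rank 12. Those most like Nfkbia were Plscr1 (0.284), Tmem252 (0.287) and Icosl (0.297). Over the 24 libraries Tnf was highest in the 24 h libraries A (29.5 CPM in AC and 36.3 CPM in Luc hearts), beside at most 5.41 CPM elsewhere. Likeness was not measured without them. All points of a table share its normalization, and the measure carries no test.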

How the data were processed

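RNA of the LV was made into poly(A) libraries and sequenced as single reads of 50 bp, and the values deposited by the authors are CPM. For the 10 uninjected hearts, the authors used STAR and mm10 for alignment, Partek's estimation method for counts on RefSeq genes, and TMM for scaling. For the 24 libraries, mm10 is the stated build and the other steps are not given in the sources used here. Every value of that table was at least 1, the value of an added constant, so 1 was subtracted. Whether the counting used strand is not stated, so reads of overlapping antisense genes cannot be told apart. In the uninjected hearts, low values came in steps of 1 read for 82.7% of those under 1 CPM (tolerance 0.02), too few to recover counts. The numbers of reads given are estimates from that step.

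Tests used limma 3.58.1 in R 4.3.3 on log2(CPM + 1) with a mean-variance trend, all groups of a table in 1 model, on genes that averaged 1 CPM or more, two-sided, with Benjamini-Hochberg adjustment over 12487 or 12555 genes. Partek's GSA, the test that the study names, was not used. Groups were taken from the labels. Named outside the members were, from each pathway list, at most 3 genes per direction called in uninjected hearts at 4 h or 24 h over sham, by size of the log2 change, with their values in the other table, and the 3 genes most like Tnf and Nfkbia. Sele and Cxcl1 in libraries A were picked after their values were seen. The members and the lists were chosen with earlier results of these data known. Alternatives were a pseudocount of 0.1, no filter, a mean of at least 10 CPM, median-ratio scaling, array weights, the replicate block, only the groups compared, and each library left out. Added after seeing the data were the fits without both libraries A, without Luc 48 h libraries 1 and 3, and without subtraction of 1. The splits by library A, by library G and by Luc 48 h libraries 1 and 3 were also set after seeing the data. Promoter windows were searched with Python 3.11, and plots were drawn with matplotlib 3.10.9.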

Additional observations from a re-analysis of the deposited data

Results flagged for a closer look

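In groups of 4 or more libraries, 7 of 185 sets of values of the members and named pathway genes had a library set apart from the rest by Dixon's criterion at 95%, of which 2 were among the 50 sets of member values. Chance alone sets apart about 1 in 20 groups. Tnfaip3 was at 3.75 CPM in AC 48 h library 1, beside 6.60 to 7.19 CPM in the other AC hearts at 48 h. Nfkbie was at 4.36 CPM in the same library, beside 5.44 to 5.53 CPM. Nfkbid was at 2.29 CPM in AC 48 h library 2, beside 1.79 to 1.86 CPM. In Luc hearts, Tab1 was at 18.3 CPM in 4 h library 1, beside 13.6 to 13.8 CPM, Cflar at 36.6 CPM in 48 h library 2, beside 40.3 to 40.8 CPM, and Sod2 at 459.9 CPM in 48 h library 1, beside 356 to 372 CPM. Cd83 was at 2.44 CPM in uninjected 24 h library D, beside 3.71 to 3.87 CPM. The groups of 3 and 2, which hold both 24 h libraries A, were not checked in this way.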

How the results depend on the processing

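The counts of called members over sham at 24 h (10 in both tables), over sham at 4 h in uninjected hearts, and 0 for AC minus Luc at 4 h and 24 h stayed within 1.5 times under every alternative apart from single libraries left out. Against 2 for Luc 4 h over sham and 1 for Luc 48 h over sham, the counts were 5 and 4 with a pseudocount of 0.1, 0 and 0 with no filter, 0 and 2 with median-ratio scaling, 1 and 0 with array weights, 7 and 2 with only the groups compared, 6 and 4 without both libraries A, and 0 and 0 without subtraction of 1. Luc 4 h over sham gave 0 with a mean of at least 10 CPM, where Nfkbiz and Tnfaip3 came just above the threshold (q = 0.0508 and 0.0528), and Luc 48 h over sham 0 without Luc 48 h libraries 1 and 3. Luc 24 h over 4 h (5) gave 3 with median-ratio scaling, 8 with array weights and 2 without both libraries A, which also left 4 of 8 in AC 48 h over 24 h. Array weights gave 4 in AC 24 h over 4 h and 1 in AC minus Luc at 48 h. Median-ratio scaling also lost Birc3 in uninjected 4 h over sham, and Nfkbia, Tnfaip3 and Birc3 in uninjected 24 h over 4 h. In Luc 48 h over 24 h it lost Birc3 and Nfkb1. Without subtraction of 1, AC 48 h over 24 h gave 6. With each library left out, the counts ranged 3 to 5 (uninjected 4 h over sham), 6 to 10 (24 h over 4 h), 0 to 5 (Luc 4 h over sham), 5 to 10 (24 h), 0 to 3 (48 h), 0 to 7 (Luc 24 h over 4 h), 8 to 10 (48 h over 24 h), 0 to 5 (AC 24 h over 4 h) and 3 to 9 (48 h over 24 h), and 0 to 0 for AC minus Luc. Apart from fewer libraries or genes tested, the cause was not tested.

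Under settings other than single libraries left out, 26 log2 values of members changed sign, none of them called. With array weights, AC minus Luc was 0.018 (Nfkbia), 0.18 (Nfkb2) and 0.058 (Zc3h12a) at 4 h, 0.12 (Tnf), 0.068 (Nfkbiz), 0.12 (Nfkbie), 0.033 (Tnfaip3), 0.35 (Birc3), 0.016 (Nfkb2) and 0.14 (Relb) at 24 h, and 0.21 (Nfkbiz) and 0.12 (Zc3h12a) at 48 h, and Luc 48 h over sham was -0.11 (Relb). With median-ratio scaling it was 0.00179 (Nfkb2, 4 h) and -0.11 (Relb, 48 h). Without both libraries A, Nfkb2 was 0.00406 in AC minus Luc at 24 h, and AC 24 h over 4 h was -0.16 (Tnf), -0.23 (Nfkbiz), -0.033 (Nfkbie), -0.66 (Tnfaip3) and -0.23 (Birc3). Without Luc 48 h libraries 1 and 3, AC minus Luc at 48 h was 0.42 (Nfkbiz), 0.10 (Tnfaip3), 0.033 (Birc3) and 0.21 (Zc3h12a), and Relb over sham -0.19. With each library left out, AC 24 h over 4 h ranged -0.23 to 0.98 (Birc3), -0.033 to 0.96 (Nfkbie), -0.23 to 1.38 (Nfkbiz), -0.16 to 1.40 (Tnf) and -0.66 to 1.51 (Tnfaip3). AC minus Luc at 24 h ranged -0.74 to 0.47 (Birc3), -0.36 to 0.059 (Nfkb1), -0.38 to 0.22 (Nfkb2), -1.26 to 0.22 (Nfkbia), -0.78 to 0.21 (Nfkbie), -1.36 to 0.25 (Nfkbiz), -0.68 to 0.17 (Relb), -1.40 to 0.42 (Tnf) and -1.92 to 0.26 (Tnfaip3). At 4 h it ranged -0.11 to 0.27 (Birc3), -0.091 to 0.22 (Nfkb1), -0.081 to 0.14 (Nfkb2), -0.074 to 0.039 (Nfkbia), -0.27 to 0.082 (Nfkbiz), -0.094 to 0.14 (Relb), -0.11 to 0.40 (Tnfaip3) and -0.11 to 0.11 (Zc3h12a), and at 48 h -0.42 to 0.034 (Nfkbiz) and -0.087 to 0.17 (Relb). Luc 48 h over sham ranged -0.037 to 0.46 (Nfkb1), -0.35 to 0.23 (Nfkbia) and -0.073 to 0.29 (Relb). Of the other member values, 1004 kept sign and call, 41 gained a call and 38 lost it, and with 1 library left out these were 2522, 32 and 100.

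Correlations of same-lettered deviations ran from -0.057 to 0.345 in the uninjected hearts, and between AC and Luc hearts of the same number or letter from -0.206 to 0.252. In groups this small, they do not settle whether letters or numbers pair the libraries. With the replicate block no count of called members moved by over 1.5 times, Birc3 at 4 h over sham was lost (1.25, q = 0.0952), and Nfkbiz at 24 h over 4 h gained (0.64, q = 0.0119). The block cut all-gene calls from 296 to 117 at 4 h over sham and from 1926 to 430 for AC minus Luc at 48 h. Array weights gave 2500 and 3178, and a mean of at least 10 CPM left 823 of the 1926. Median-ratio scaling moved AC 24 h over 4 h from 1874 higher and 477 lower to 1091 and 989. The depth of the 24 libraries is unknown, which limits low values such as Tnf in sham.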
